A study of Bos taurus with 4 samples.

Results

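Intergenic transcripts that appeared in the table of a single muscle were examined in Hereford cattle. They were chosen by their class code, u, which in Cufflinks marks a transcript apart from any annotated gene, and by the measured values themselves, as those with a level listed for exactly 1 of 4 muscles. Their number and level in that muscle are therefore a description. The choice gave 19356 transcripts of 63845 in the series, or 55.5% of the 34877 intergenic ones. The study profiled candidate long noncoding RNAs in longissimus thoracis (labelled Longissimus thoraci, the long muscle of the back), scapula muscle, gluteus and intercostal muscle. All 4 groups came from female Hereford animals that were not close relatives, were free of recent disease, were fattened on wet corn silage in the same feedlot and were slaughtered at 18 months, with no treatment named. For each muscle the total RNA of 3 animals was pooled in equal parts and sequenced as 1 library. A muscle therefore has no replicates, differences between muscles are given by their size without a test, and a smaller share of a cell type cannot be told apart from less RNA per cell.

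Long intergenic noncoding RNAs arise between protein-coding genes and have no recognised long open reading frame. Some act in the nucleus on neighbouring genes or on chromatin, some act in the cytoplasm as binding partners of proteins or microRNAs, and many have no known function. As a class they are known for low abundance and for being found in few tissues. In muscle, several are known to take part in the differentiation of myoblasts and in fibre type.

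The identifiers hold no gene name for this class and no coordinates, so no transcript was placed on a chromosome and none has a sequence here. Their locus numbers still carry an order. Among successive loci that belong to different named genes, 96.5% (6007 of 6224) stood on the same chromosome and in order by RefSeq (assembly ARS-UCD2.0, another build than the authors'). Transcripts are therefore described below by the nearest lower-numbered and higher-numbered loci at a named gene, and the numbers between such a pair of loci are called a stretch. Both named loci lay on the same chromosome for 19050 of the 19356 transcripts (98.4%). A named gene is a landmark in the numbering, other genes without a listed transcript may lie between, and nothing is said of control by it.

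Levels are given as FPKM, the fragments of a transcript scaled to its length in kilobases and to the library total. Whole reads and lengths were recovered from the values, and the library totals were 2132255 reads for longissimus thoracis, 1511933 for scapula muscle, 1318644 for intercostal muscle and 1107493 for gluteus. The listed transcripts alone summed to 102 to 104% of these totals. A total is thus close to the reads in a table of noncoding candidates and need not be the sequencing depth. Library total and depth here mean this recovered total. A range in parentheses after a level is its exact 95% Poisson interval and one after a share is its 95% Wilson interval, and both cover counting error only. Recovered reads and lengths are the smallest that the values allow at 202 nucleotides or more, so the intervals are at their widest if no transcript is shorter. The tables list only values above 0, so a transcript is either listed or not listed, and no upper limit is given where it is not. As a check of the labelled tissue, transcripts at 6 of 12 skeletal muscle marker genes (ACTN2, MYF6, MYH1, MYH7, NEB and TTN) were listed, and their summed level in RPM, reads scaled to the library total, was lowest in longissimus thoracis, at 30387, against 58898 in intercostal muscle, 51546 in gluteus and 43609.7 in scapula muscle. CKM, ACTA1, DES, MYH2, MYOD1 and MYOG had no listed transcript in these tables of noncoding candidates. Of the 3 erythroid and 4 adipocyte markers none was listed, and of the leukocyte markers 1 of 4, with 0 to 22.6 RPM. Both smooth muscle markers were listed at 42.4 to 204 RPM and 1 of 3 nerve markers at 2.71 to 12.7 RPM. Of 3 endothelial markers 1 was listed, at 16.9 RPM in longissimus thoracis and 153 to 161 RPM elsewhere, and the part of this difference and of that in muscle markers in the results below was not tested. Longissimus thoracis stood apart in the transcripts that it lacks, too. Of 1491 intergenic transcripts that all the other muscles listed with at least 20 reads, 99 (6.64%, 5.48 to 8.02) were missing from its table. The same share was 2.58% (1.91 to 3.48) for gluteus, 0.993% (0.592 to 1.66) for intercostal muscle and 0.298% (0.116 to 0.763) for scapula muscle. The counts per muscle are given below also without its library.

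Longissimus thoracis held 7759 of the transcripts listed in 1 muscle, scapula muscle 6512, intercostal muscle 3004 and gluteus 2081. They were 45.2% (44.5 to 46.0) of the intergenic transcripts listed for longissimus thoracis, 33.1% (32.4 to 33.8) for scapula muscle, 21.3% (20.7 to 22.0) for intercostal muscle and 18.2% (17.5 to 18.9) for gluteus. Longissimus thoracis came first, while scapula muscle had the longer list, 19676 intergenic transcripts against 17148. From first to last the muscles stood in the order of their library totals, deepest to shallowest, and the part of depth in this order was not tested. The order of the muscles was the same with the listed reads of every library thinned to the depth of the shallowest, where 7808.8, 6547.7, 3092.7 and 2151.2 transcripts would be expected in the order just given. Thinning acts only on transcripts already listed, so it cannot show what libraries sequenced to the same depth would list. Leaving scapula muscle out of the rule gave 5430 for intercostal muscle and 3443 for gluteus, more than 1.5 times as many, and raised their shares to 38.6% and 30.1%. Counting a transcript as listed only at 10 or more reads gave shares of 39.0% for intercostal muscle and 32.9% for gluteus. Leaving longissimus thoracis out gave 8214 for scapula muscle, 3778 for intercostal muscle and 2704 for gluteus, or 41.7%, 26.8% and 23.6% of what they list, in the same order of muscles.

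**Figure D1:**
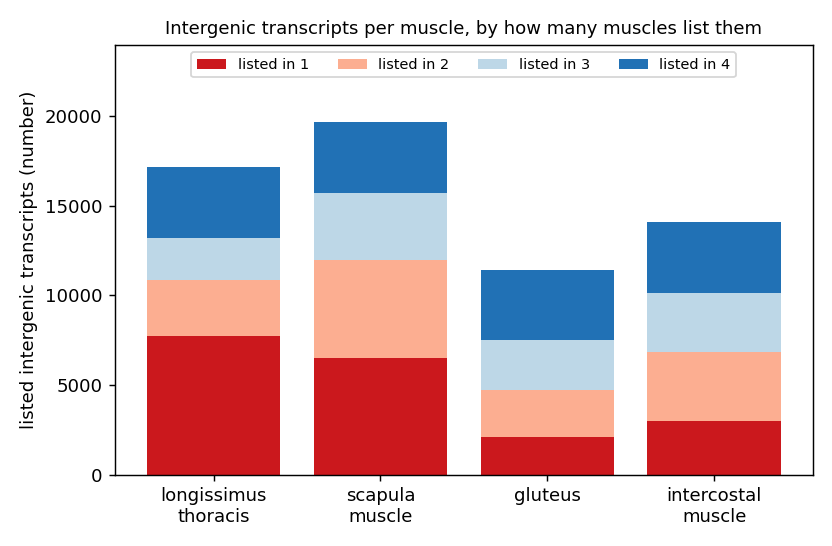
Number of intergenic transcripts listed for each muscle (vertical axis), divided by the number of muscles that list them; each bar is 1 pooled library. The lowest segment of each bar holds the transcripts listed in 1 muscle, 7759 in longissimus thoracis and 2081 in gluteus, and the top segment is the 3950 transcripts listed in all 4.

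The intergenic transcripts listed in 1 muscle were numerous but carried few reads. They held 5.83% (5.80 to 5.86) of the reads in the longissimus thoracis table and 5.23% (5.19 to 5.26) in that of scapula muscle. The share was 2.84% (2.81 to 2.86) in intercostal muscle and 2.17% (2.15 to 2.20) in gluteus. Of the reads in intergenic transcripts alone they held 20.3%, 17.7%, 10.5% and 8.79% in the same order. By a rule of size, at least 2-fold above the median of the other muscles on the FPKM + 1 scale with 1 FPKM or more in a library, 7757 of the 7759 longissimus thoracis transcripts were called higher, where 37.2% of all transcripts were. In scapula muscle 6510 of 6512 were called against 43.2% of all, in gluteus 2081 of 2081 against 18.6%, and in intercostal muscle 3004 of 3004 against 26.4%. Nothing is read from these counts, because being listed nowhere else fixes the call.

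In longissimus thoracis the highest level belonged to TCONS_00043063, at 215 (177 to 259) FPKM from 112 reads on 244 nucleotides, not listed in the other 3 muscles. It is numbered between SFMBT2, a Polycomb group protein, and PFKFB3, an enzyme that sets the rate of glycolysis. That stretch held 3 intergenic transcripts, and longissimus thoracis listed all 3 while no other muscle listed any. TCONS_00126838, between the glycosyltransferase gene GXYLT2 and MITF, the transcription factor of melanocytes, stood at 147 (114 to 188) FPKM. The stretch from GXYLT2 to MITF held 5 intergenic transcripts from 22.4 to 147 FPKM, all of them listed for longissimus thoracis alone. Only 3 stretches of 5 or more intergenic transcripts belonged to a single muscle in this way. The other pair, FBXO11 to PSME4 and ITGAV to NUP35 with 6 transcripts each, were longissimus thoracis stretches too, at most 41.6 and 29.8 FPKM.

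TCONS_00069147, numbered between RRP15, a ribosome assembly factor, and TGFB2, a growth factor of the TGF-beta family, stood at 173 (138 to 214) FPKM in longissimus thoracis. TCONS_00061334 stood at 168 (133 to 209) FPKM between PIK3C2A, a lipid kinase, and SOX6, a transcription factor that represses slow fibre genes. Neither was listed elsewhere, yet the surroundings of both were shared with other muscles. Between RRP15 and TGFB2 there were 12 intergenic transcripts, of which longissimus thoracis listed 8, scapula muscle 7, gluteus 3 and intercostal muscle 7. Between PIK3C2A and SOX6 there were 95 intergenic transcripts, of which longissimus thoracis listed 57, scapula muscle 63, gluteus 14 and intercostal muscle 24. By number of reads TCONS_00043063 was followed by TCONS_00036718 between NUFIP1 and ZC3H13 with 102 reads, and 3 transcripts with 97 reads each stood between RUNX1 and HLCS, MORC3 and TTC3, and WDR25 and PPP2R5C.

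In scapula muscle the highest level was 133 (99.2 to 174) FPKM for TCONS_00242724, from 52 reads on 259 nucleotides, not listed in the other muscles. It is numbered between ECHDC1, a metabolite proofreading enzyme, and FABP7, a fatty acid binding protein of the nervous system. TCONS_00255406, at 127 (90.9 to 172) FPKM, is numbered between TMEM47 and DMD, the gene of dystrophin. TCONS_00159101 stood at 118 (84.8 to 159) FPKM between MSR1, a scavenger receptor of macrophages, and DLC1. TCONS_00188991 stood at 118 (85.1 to 158) FPKM between COPG2, a coat protein of vesicles, and CHCHD3, a protein of the mitochondrial inner membrane. TCONS_00255776, between PRPS2 and PNPLA4, stood at 117 (86.7 to 154) FPKM. The 5 intervals overlap each other throughout, so these neighbours in rank do not differ beyond counting error. For TCONS_00242724, TCONS_00255406, TCONS_00159101 and TCONS_00188991 another transcript of the same locus was listed in another muscle. Among those with the most reads in scapula muscle was TCONS_00006315 with 51 reads on 848 nucleotides, 39.8 (29.6 to 52.3) FPKM, between GBE1, the glycogen branching enzyme, and VGLL3, a cofactor of TEAD transcription factors, and its locus too was listed in another muscle.

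In gluteus TCONS_00236562 stood highest, at 150.5 (104 to 210.3) FPKM from 34 reads on 204 nucleotides, and is numbered between PCSK5, a proprotein convertase, and the glycosyltransferase gene GCNT1. TCONS_00206177 stood at 145 (117 to 177) FPKM and had the most reads in gluteus, 95 on 591 nucleotides. It is numbered between SMUG1, a DNA repair enzyme, and CALCOCO1, a receptor of selective autophagy. Longissimus thoracis listed none of the 7 intergenic transcripts between SMUG1 and CALCOCO1, scapula muscle listed 4 and intercostal muscle 2. TCONS_00111824, between SLC35F5 and CCDC93, stood at 145 (109 to 188) FPKM, TCONS_00042440, between MTMR6 and the mitochondrial peptidase gene MIPEP, at 141 (98.0 to 198) FPKM, and TCONS_00226246, between RNF145 and PWWP2A, at 140.4 (98.8 to 193) FPKM. No other muscle listed any of them, and their intervals overlap. By reads, TCONS_00206177 and TCONS_00111824 were followed by TCONS_00067158 with 53 reads and 110.3 (82.6 to 144) FPKM, between the ubiquitin ligase gene RNF121 and PAAF1, and by TCONS_00112016 with 43 reads and 71.8 (51.9 to 96.7) FPKM, between ERBB4, a receptor of neuregulins, and IKZF2, a transcription factor of lymphocytes. TCONS_00075161, between DNM3 and FASLG, also had 43 reads. The loci of TCONS_00236562, TCONS_00111824 and TCONS_00067158 had another transcript listed in another muscle.

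In intercostal muscle TCONS_00155068 stood at 143 (102 to 195) FPKM from 40 reads. It is numbered between ATAD1 and ACTA2, the actin gene of smooth muscle, and the 4 muscles listed 10, 10, 8 and 9 of the 20 intergenic transcripts of that stretch in the order longissimus thoracis, scapula muscle, gluteus and intercostal muscle. TCONS_00117667, at 143 (101 to 196) FPKM, is numbered between ADCY2, an adenylyl cyclase, and LRRC14B. TCONS_00138891, at 135 (96.7 to 184) FPKM, is numbered between NHLRC1, the ubiquitin ligase malin of glycogen metabolism, and the kinesin gene KIF13A. TCONS_00022449, between ABHD12B and ZNF609, stood at 120.05 (86.1 to 163) FPKM, and TCONS_00098653, between the chromatin remodeller gene BPTF and the tubulin folding gene TBCD, at 118 (88.4 to 155) FPKM from 52 reads, the most in this muscle. All 5 were listed for intercostal muscle alone, but the loci of TCONS_00155068 and TCONS_00098653 had another transcript listed in another muscle. The longest recovered length of any transcript listed in 1 muscle, 1367 nucleotides, belonged to TCONS_00132266, with 48 reads and 26.6 (19.6 to 35.3) FPKM between CCDC13 and the kinase gene SNRK. TCONS_00010944, between MBNL1, a splicing regulator of muscle, and SUCNR1, a receptor of succinate, had 48 reads and 44.3 (32.7 to 58.8) FPKM. Of the 37 intergenic transcripts between MBNL1 and SUCNR1 only 7 were listed in 1 muscle.

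At the other end of the range, the lowest values of transcripts listed in 1 muscle came from 1 read. They were 0.875 (0.0222 to 4.88) FPKM for TCONS_00120805 in longissimus thoracis, 0.999 (0.0253 to 5.57) for TCONS_00073918 and TCONS_00125600 in scapula muscle, 1.64 (0.0416 to 9.15) for TCONS_00205677 in gluteus and 1.33 (0.0337 to 7.41) for TCONS_00011018 in intercostal muscle. Just outside the rule stood transcripts that 1 read placed in a second table. TCONS_00201724 had 170 reads and 68.3 FPKM in scapula muscle and 1 read, 0.461 FPKM, in intercostal muscle. TCONS_00240692 had 52 reads in longissimus thoracis and 1 in scapula muscle, and TCONS_00211007 had 56 in scapula muscle and 1 in intercostal muscle. Of the 7520 intergenic transcripts listed in 2 muscles, 1747 (23.2%) had 1 read in at least one of them.

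Most of the transcripts listed in 1 muscle nevertheless rested on more than a read or so. The median was 13 reads in longissimus thoracis, 12 in scapula muscle and intercostal muscle, and 11 in gluteus, and the quartiles were 11 and 18, 8 and 16, 8 and 17, and 8 and 15 in the order longissimus thoracis, scapula muscle, intercostal muscle and gluteus. At least 10 reads lay behind 89.0% (88.3 to 89.7) of those in longissimus thoracis, 68.4% (67.2 to 69.5) in scapula muscle, 69.7% (68.1 to 71.4) in intercostal muscle and 64.6% (62.5 to 66.6) in gluteus. Single reads lay behind 1.06% (0.852 to 1.31) in longissimus thoracis, 2.59% (1.99 to 3.37) in gluteus, 3.49% (3.07 to 3.96) in scapula muscle and 4.59% (3.90 to 5.40) in intercostal muscle. With reads and lengths in lowest terms in place of lengths of at least 202 nucleotides, these shares would be 8.40%, 11.9%, 13.4% and 14.3%. At 50 or more reads stood 102 transcripts of longissimus thoracis, the deepest library, against 6 in scapula muscle, 1 in intercostal muscle and 3 in gluteus. At 80 FPKM or more, a level scaled to the library total, the numbers were 158 in longissimus thoracis, 123 in gluteus, 88 in intercostal muscle and 79 in scapula muscle. At a given length fewer reads reach that level in a shallower library, so depth still enters these numbers. The median level was 27.5 FPKM in longissimus thoracis, 28.1 in scapula muscle, 34.6 in intercostal muscle and 38.7 in gluteus, an order that runs from the deepest library to the shallowest. A single read on 202 nucleotides was worth 2.32 FPKM in longissimus thoracis and 4.47 in gluteus.

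Lengths, which the rule did not use, were short. The median was 224 nucleotides in longissimus thoracis, 249 in gluteus, 253 in intercostal muscle and 261 in scapula muscle. Intergenic transcripts listed in 2 muscles had a median of 330.0 nucleotides, those in 3 muscles 436 and those in all 4 muscles 708. A length read from a single library is more often too short than one read from several, and among transcripts listed in 3 or 4 muscles, of every class, 1 library alone gave the joint length in 70.8% of values. The longissimus thoracis transcripts were also the most uniform, with quartiles of 212 and 246 nucleotides against 223 and 322 in scapula muscle.

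**Figure D2:**
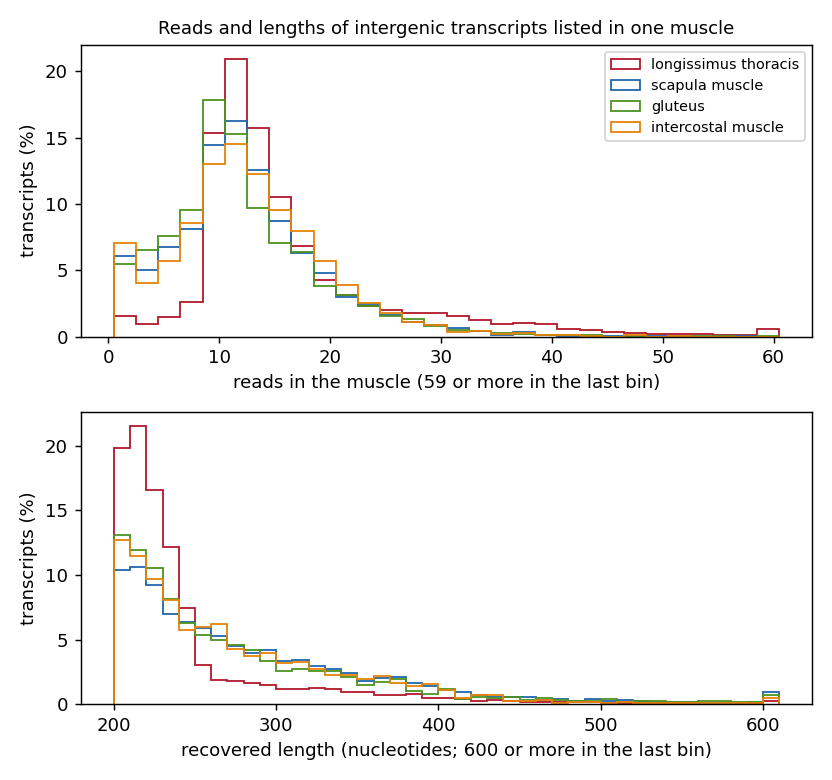
Distribution of recovered reads (upper panel) and recovered lengths in nucleotides (lower panel) of the intergenic transcripts listed in 1 muscle, as a percentage of the transcripts of each muscle. Longissimus thoracis peaks more sharply, with a median of 13 reads and 224 nucleotides.

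The share of a muscle's intergenic transcripts that no other muscle listed was then set against read number, which is tied to the listing that chose the transcripts, so these values are a description. Among intergenic transcripts with 1 read in longissimus thoracis, 15.2% (12.4 to 18.5) were listed in no other muscle, and the share was 69.2% (68.1 to 70.2) among those with 10 to 19 reads, 32.3% (31.0 to 33.6) with 20 to 49 and 4.68% (3.87 to 5.65) with 50 or more. The peak lay at the same read number in scapula muscle, 49.4% (48.2 to 50.5), in intercostal muscle, 34.4% (33.1 to 35.8), and in gluteus, 31.3% (29.8 to 32.9). With 50 or more reads the shares were 0.0799% (0.0141 to 0.451) in intercostal muscle, 0.310% (0.105 to 0.906) in gluteus and 0.414% (0.190 to 0.900) in scapula muscle. At 5 reads and above longissimus thoracis lay above each of the other muscles beyond counting error. At a given length, though, a read is worth fewer FPKM there. Sorted by FPKM instead, it led from 10 to 20 FPKM, 32.4% against 26.6% in scapula muscle, and from 20 to 40, 62.6% against 44.5%. From 40 to 80 FPKM it had 39.0% and scapula muscle 39.1%. It lay below scapula muscle from 5 to 10 FPKM, 13.0% against 18.1%, and under 5 FPKM, 11.9% against 14.3%. At 80 FPKM or more the shares were 21.1% (18.3 to 24.2) in longissimus thoracis and 19.6% (16.7 to 22.9) in gluteus. They were 15.2% (12.3 to 18.5) in scapula muscle and 14.3% (11.8 to 17.3) in intercostal muscle. The interval of longissimus thoracis met those of scapula muscle and gluteus.

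**Figure D3:**
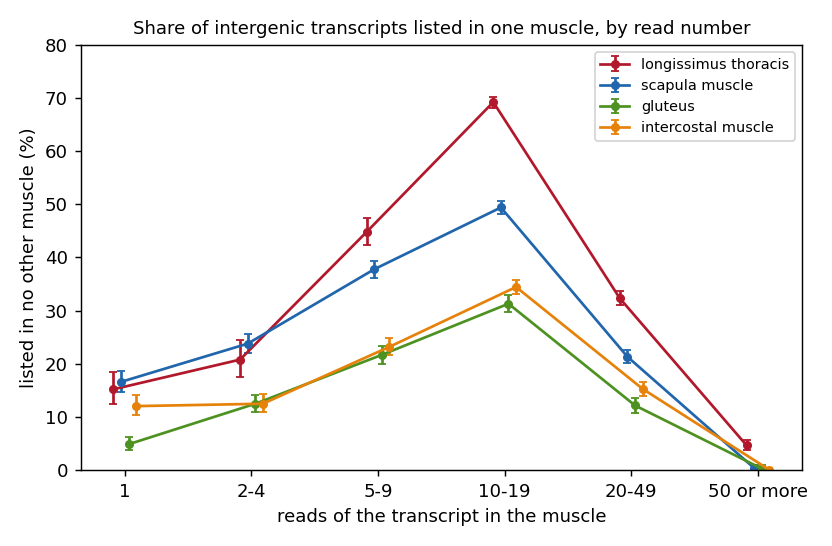
Percentage of the intergenic transcripts of a muscle that no other muscle lists (vertical axis), by the reads of the transcript in that muscle (horizontal axis); points are shares and bars their 95% Wilson intervals. All 4 lines peak at 10 to 19 reads, from 31.3% in gluteus to 69.2% in longissimus thoracis.

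The transcript numbers split the intergenic transcripts into 4 series, and this split matched the muscles. In the Cufflinks suite transcript models are assembled from each library and then merged into 1 numbered set; how this was done here is not stated in the labels. Ordered by transcript number, the locus numbers climb and fall back, so that each of 30 groups of loci is passed 4 times. Of the intergenic transcripts in the first series 99.0% were listed for longissimus thoracis, against 24.5% for scapula muscle, 18.2% for intercostal muscle and 16.0% for gluteus. The second series was listed at 99.8% for scapula muscle, the third at 99.4% for intercostal muscle and the fourth at 99.0% for gluteus, and no other muscle passed 46.3% in them.

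Nearly every transcript listed in 1 muscle carried a number of its own muscle's series. This was so for 99.6% (99.4 to 99.7) of those in longissimus thoracis, 98.6% (98.3 to 98.9) in scapula muscle, 98.5% (98.0 to 98.8) in intercostal muscle and 98.6% (98.0 to 99.0) in gluteus. In longissimus thoracis 17 of the remaining transcripts fell in no series and 13 in that of another muscle, and those 13 had a median of 7 reads, with 6 of them at 10 or more. The 88 scapula muscle transcripts with a number of another series had a median of 3 reads and 6 of them reached 10 reads, where 69.2% of those in its own series did. In gluteus 3 of 29 and in intercostal muscle 9 of 46 such transcripts reached 10 reads, with medians of 3 and 5 reads. Among transcripts shared between muscles, those of the first series had a median of 28 reads in longissimus thoracis and 7.5 to 9 in the others. The median in the own muscle of the other series was 18 reads each, above the 8 to 12 of the remaining muscles but not above longissimus thoracis, which had 18, 19 and 25 where it listed such transcripts. Within its own series, the share of a muscle's intergenic transcripts that no other muscle listed was 66.4% in longissimus thoracis, 54.1% in scapula muscle, 47.6% in intercostal muscle and 41.9% in gluteus. The order of the muscles was thus the same as over all listed transcripts.

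**Figure D4:**
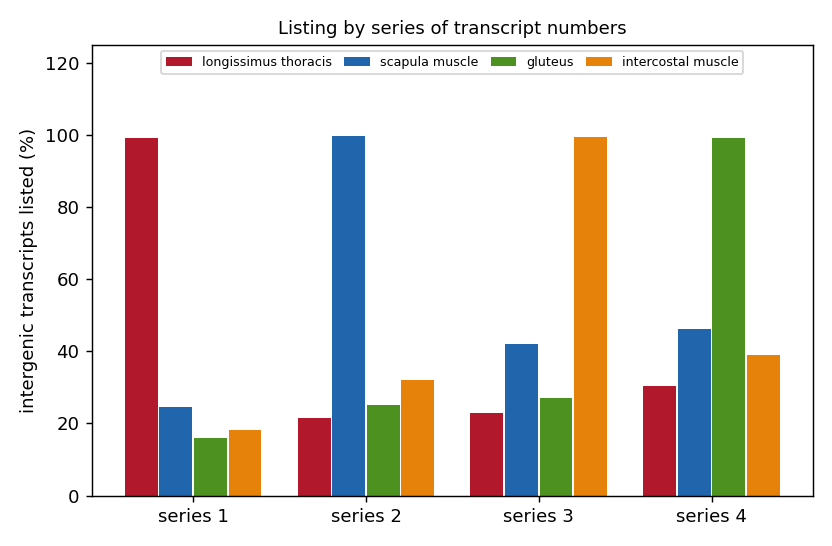
Percentage of the intergenic transcripts of each number series (horizontal axis) that are listed for each muscle (vertical axis); each bar is 1 pooled library. Each series is listed at 99.0% or more for 1 muscle and at 46.3% or less for the others.

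The rule works on transcripts, so the loci were examined next. The 19356 transcripts lay at 18716 loci, and 88.5% of them were the only listed transcript of their locus. For 11.4% (10.9 to 11.8) another transcript of the same locus was listed in a different muscle, 16.1% in intercostal muscle, 15.9% in gluteus, 10.6% in scapula muscle and 8.97% in longissimus thoracis. In 1218 of these 2200 cases (55.4%) the highest such transcript in another muscle had a higher level than the transcript listed in 1 muscle. By muscle this was so for 61.5% in scapula muscle, 58.3% in longissimus thoracis, 48.7% in intercostal muscle and 46.2% in gluteus. Loci with several transcripts of a single muscle were rare. The locus with the most was XLOC_194134, with 3 scapula muscle transcripts of 21.5 to 37.7 FPKM, numbered between TMEM47 and DMD. In longissimus thoracis XLOC_045042, between the apoptosis inhibitor gene BIRC2 and JRKL, held 2 transcripts of 56.5 and 66.5 FPKM. In gluteus XLOC_066145, between PLCG2 and CDH13, held 2 of 24.7 and 70.9 FPKM. In intercostal muscle XLOC_037103, between STAM and CACNB2, held 2 of 57.8 and 76.2 FPKM and a further one listed in scapula muscle.

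Transcripts of the same muscle lay close together in the numbering. A neighbouring locus with a transcript of the same muscle's own was present for 46.1% of the longissimus thoracis loci, where 23.6% of all listed loci had such a neighbour. The values were 41.5% against 19.97% in scapula muscle, 19.2% against 9.90% in intercostal muscle and 14.9% against 6.93% in gluteus. With transcripts of 10 or more reads alone they were lower, 11.99% against 6.99% in intercostal muscle and 8.64% against 4.54% in gluteus. Among loci with an intergenic transcript alone the contrast was smaller, 51.6% against 43.0% in longissimus thoracis, 44.7% against 36.9% in scapula muscle, 22.2% against 18.4% in intercostal muscle and 17.1% against 12.9% in gluteus. The longest unbroken run was 14 longissimus thoracis loci between BMPR1B and PDLIM5, with 272 reads and levels from 1.63 to 107 FPKM. Scapula muscle reached 12 loci between RGMA and ABHD2, with 137 reads and 9.22 to 45.3 FPKM. Intercostal muscle reached 4 loci between USP25 and ROBO1, and gluteus 3 between ACBD4 and PLEKHM1. Runs of 5 or more loci numbered 44 in longissimus thoracis and 25 in scapula muscle, and there were none in the other muscles.

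The stretches between named genes show what the other muscles held in the same neighbourhood. Of the longissimus thoracis transcripts 94.7% lay in a stretch where another muscle also listed an intergenic transcript, and the share was 96.3% in intercostal muscle, 96.6% in gluteus and 96.7% in scapula muscle. Large stretches weigh more in these shares. Counted by stretch, they were 87.9%, 93.6%, 94.5% and 91.6% in the same order. A total of 159 stretches held 20 or more transcripts listed in 1 muscle, and together they held 6258 of them, or 32.9% of those with a stretch. The stretches named next were picked after their values were seen, as those with the most transcripts of a muscle or the largest share from it.

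Between BMPR1B, a receptor of bone morphogenetic proteins, and PDLIM5, a protein of the Z disc, 40 of the 47 transcripts listed in 1 muscle came from longissimus thoracis. That muscle listed 52 of the 61 intergenic transcripts of the stretch, scapula muscle 13, gluteus 11 and intercostal muscle 5. Its listed transcripts covered 15.8 kb at a mean of 39.99 FPKM, against 5.55 kb at 26.6 in scapula muscle, 5.03 kb at 24.97 in gluteus and 3.29 kb at 28.4 in intercostal muscle. Between PYROXD1, an oxidoreductase mutated in a myopathy, and AEBP2, a cofactor of Polycomb complexes, 31 of 36 came from longissimus thoracis. That stretch was picked for this share, so a contrast in number came with the choice. Longissimus thoracis covered 14.5 kb there at a mean of 29.6 FPKM and intercostal muscle 4.99 kb at 37.6. The mean level of a stretch covers only the transcripts that the muscle lists. Summed over them, the level was 429 RPM in longissimus thoracis, 187 in intercostal muscle, 170 in scapula muscle and 136 in gluteus.

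Between ESRRG, a nuclear receptor of oxidative muscle, and RAB3GAP2, longissimus thoracis had 48 and intercostal muscle 22 transcripts of its own, scapula muscle 13 and gluteus 3. Longissimus thoracis listed 61 of the 108 transcripts there, intercostal muscle 40, scapula muscle 25 and gluteus 5. The covered lengths were 17.1, 13.1, 8.89 and 1.40 kb and the mean levels 33.2, 33.8, 15.5 and 21.4 FPKM in that order. Longissimus thoracis and intercostal muscle thus had close mean levels in this stretch, while most of what each listed there was listed by no other muscle. Summed over the listed transcripts, the level was 567 RPM in longissimus thoracis and 444 in intercostal muscle.

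Scapula muscle stood out between RGMA, a coreceptor of bone morphogenetic proteins, and ABHD2, with 87 transcripts of its own against 18 in longissimus thoracis, 19 in intercostal muscle and 4 in gluteus. It listed 163 of the 212 intergenic transcripts, at a mean of 28.8 FPKM over 58.9 kb, where the other muscles had 17.2 to 20.2 FPKM over 18.8 to 32.0 kb. Between EGLN3, a prolyl hydroxylase of oxygen sensing, and SPTSSA, a subunit of the first enzyme of sphingolipid synthesis, 18 of 23 transcripts listed in 1 muscle came from scapula muscle. Between PANK3, an enzyme of coenzyme A synthesis, and LCP2, an adaptor of T cell receptor signalling, it was 16 of 22. Longissimus thoracis listed 2 transcripts in the former stretch and 1 in the latter.

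Among the stretches with 20 or more such transcripts, gluteus held its largest share, 11 of 30, between ZCCHC24 and GLUD1, glutamate dehydrogenase. Between PLCG2, a phospholipase of immune receptors, and CDH13, T-cadherin, 16 of 52 came from gluteus and 16 from longissimus thoracis. Gluteus had the highest mean level there, 30.4 FPKM over 16.5 kb against 18.3 to 22.8 FPKM in the others. For intercostal muscle the largest share was 9 of 24, between PPARGC1A, the coactivator of mitochondrial biogenesis, and the splicing helicase gene DHX15. On the other side of PPARGC1A, towards LCORL, a gene associated with body size in cattle, scapula muscle had 13 transcripts of its own, longissimus thoracis 5, intercostal muscle 3 and gluteus 0.

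**Figure D5:**
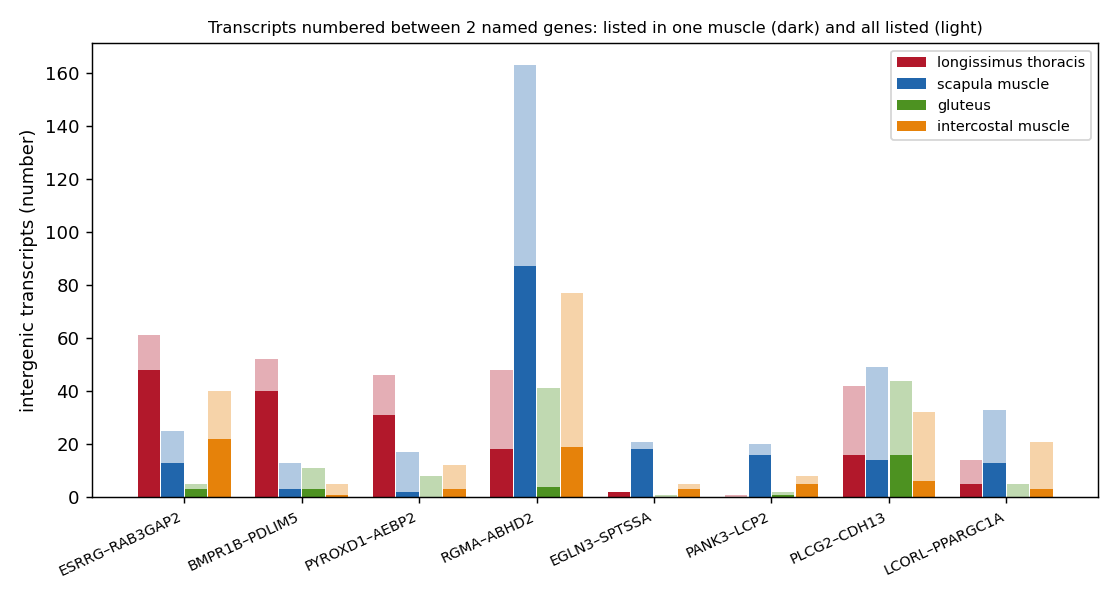
Number of intergenic transcripts (vertical axis) numbered between 2 named genes (horizontal axis), for each muscle; dark bars are transcripts listed in that muscle alone and light bars all those it lists. The dark bars reach 48 for longissimus thoracis at ESRRG–RAB3GAP2 and 87 for scapula muscle at RGMA–ABHD2.

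For each of the 4 muscles, the stretch with the most transcripts of its own lay between TMEM47 and DMD, the dystrophin gene. It held 790 intergenic transcripts, 410 of them listed in 1 muscle, a smaller share than the 55.5% of all intergenic transcripts. Longissimus thoracis had 196 of its own among 509 that it listed there, scapula muscle 150 of 474, gluteus 34 of 244 and intercostal muscle 30 of 218. Each was a smaller share than the same muscle had over all its intergenic transcripts, 45.2%, 33.1%, 18.2% and 21.3% in that order. The mean level over the listed transcripts was 36.4 FPKM over 204 kb in longissimus thoracis, 23.7 in both scapula muscle (201 kb) and gluteus (121 kb), and 14.3 over 107 kb in intercostal muscle. Between DMD and TAB3, on the other side, stood 6 further transcripts, each listed in 1 muscle, 3 of them in longissimus thoracis.

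Muscle genes and genes of body position were then taken as landmarks, from lists chosen with earlier results of these data known. Of 41 muscle genes 14 had a usable locus, and beside them stood 1000 intergenic transcripts, of which 522 (52.2%) were listed in 1 muscle, close to the 55.5% of all intergenic transcripts. Of these 522, 410 lay between TMEM47 and DMD. Beside TTN, the gene of titin, and numbered towards NFE2L2, longissimus thoracis listed 5 of 6 transcripts and 4 of them alone, at most 57.3 (38.1 to 82.9) FPKM for TCONS_00103881. Scapula muscle listed none there, and gluteus and intercostal muscle 1 each. On the other side of TTN, towards SESTD1, stood 8 transcripts of which longissimus thoracis and intercostal muscle listed 5 each and scapula muscle and gluteus 7 each, and only 1, of gluteus, was listed in 1 muscle. None of the 4 transcripts between NEB, the gene of nebulin, and RIF1, of the 4 between UBE2Q1 and the tropomyosin gene TPM3, and of the 2 between MEF2A and TTC23 was listed in 1 muscle. Beside MEF2C, a transcription factor of muscle, and towards MBLAC2, the only transcript was listed for longissimus thoracis, TCONS_00218107 at 44.9 (27.4 to 69.3) FPKM. On its other side, towards TMEM161B, longissimus thoracis listed 4 transcripts, intercostal muscle 3 and the remaining muscles none. Beside LDB3, a Z disc protein, and towards MAPK8, longissimus thoracis and scapula muscle had 11 transcripts of their own each, and gluteus and intercostal muscle 4 each. Beside PPARGC1A and towards DHX15 the highest was a gluteus transcript, TCONS_00215117 at 115 (79.3 to 160.07) FPKM, and the other transcript of that stretch listed for gluteus was shared.

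Of 64 position genes 13 had a usable locus, with 93 intergenic transcripts beside them and 49 (52.7%) listed in 1 muscle, 17 in longissimus thoracis, 11 each in gluteus and intercostal muscle and 10 in scapula muscle. The share was close to the 55.5% of all intergenic transcripts. Over all transcripts listed in 1 muscle, 40.1% belonged to longissimus thoracis, 33.6% to scapula muscle, 15.5% to intercostal muscle and 10.8% to gluteus. Between HIBADH and HOXA6, a homeobox gene of the HOXA cluster, scapula muscle had 3 transcripts of its own at 29.0 to 47.5 FPKM and longissimus thoracis 1 at 24.8 (12.4 to 44.4) FPKM. Gluteus and intercostal muscle listed none there. Between MTX2 and HOXD3 and between HOXD3 and HOXD4 gluteus had 2 transcripts and 1 transcript of its own, with 48.7 (24.3 to 87.1) FPKM for TCONS_00111615 and 24.0 (12.01 to 43.0) FPKM for TCONS_00111621. Longissimus thoracis had 3 of its own between HOXD4 and GPR155, from 23.1 to 38.9 FPKM. Intercostal muscle had 2 between NCKAP1L and HOXC10, at 83.3 (55.8 to 120) and 62.0 (36.8 to 98.1) FPKM. Beside PITX1, a homeobox gene of the hindlimb, and towards KLHL3 there was 1 transcript each of longissimus thoracis at 73.9 (53.5 to 99.5), gluteus at 42.1 (24.1 to 68.4) and intercostal muscle at 25.8 (15.1 to 41.4) FPKM, and scapula muscle listed 1 transcript that was shared. Among transcripts listed in 1 muscle beside these 13 position genes, the highest level was that of TCONS_00089182 in intercostal muscle. It stood at 104 (72.3 to 146) FPKM between IRX3 and PLLP. Position genes without a usable locus are not covered.

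Intronic transcripts listed in 1 muscle, the class most like the intergenic ones, had nearly the same share, 14544 or 55.0% of all intronic transcripts. By muscle they were 41.6% of the listed intronic transcripts in longissimus thoracis, 36.1% in scapula muscle, 24.1% in intercostal muscle and 19.2% in gluteus, the same order as in the intergenic class. Their median read number was higher in longissimus thoracis, 17 against 13, and 13 to 14 against 11 to 12 in the other muscles, with 43.1% against 21.5% at 20 or more reads in longissimus thoracis. Their median length was 246 nucleotides against 237. Intergenic transcripts listed in every muscle numbered 3950 and had a median of 39 reads in longissimus thoracis, 29 in scapula muscle, 25 in intercostal muscle and 20 in gluteus. Their median levels, 26.2 to 27.8 FPKM, lay below those of the transcripts listed in 1 muscle in each of the 4 libraries, narrowly so in longissimus thoracis and scapula muscle. The level of a transcript listed in 1 muscle is read in the muscle whose listing chose it. Median lengths also differed, 237 nucleotides against 708 for those listed in every muscle. Nothing is therefore read from this difference in level.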

How the data were processed

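Total RNA of 4 muscles, pooled from 3 animals each, was made into 1 Illumina library each, per the labels' protocols. The FPKM values were made and deposited by the authors, 1 per transcript and library and only above 0. The submitters' processing notes name TopHat2 2.0.9, Cufflinks 2.1.1 and UMD3.1 with no role or order. No strand setting, filter or annotation version is given in these sources.

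The members, lists and named items were chosen with earlier results of these data known. Members are class u identifiers listed in exactly 1 table. Library totals were found as common divisors of the values. Each value was then a ratio of whole reads to a whole length, to within 5.05e-15 of its size. Among members, lengths in lowest terms rose from 86 at 192 to 201 nucleotides to 1719 at 202 to 211, the steepest rise, so the shortest whole multiple of at least 202 nucleotides was taken, a choice made after seeing the data. Reads and lengths are lower bounds if no transcript is shorter. For transcripts listed in 3 or 4 libraries, 1 library alone gave the joint length in 84.1% of values under 404 nucleotides, and 94.5% of members were that short. Recovered reads summed to 102 to 104% of the totals, and the cause of the excess was not tested. Recovery was tested on simulated data. Stretches and number series were also chosen after the values were seen.

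A new segment of numbers starts where the locus number drops by over 300 when transcripts are sorted by number, which gave 91 segments. The fourth series of a group of loci and the first series of the next group share a segment. They were parted by the locus numbers of the groups, and 34 transcripts fell in no series. Named by rule were, per muscle, the 5 highest FPKM with 10 or more reads, the 5 with most reads, the 2 lowest, the locus with most members, the longest run, and 3 transcripts just outside the rule. Some items that this rule names are not reported here. Gene names come from the files, and 5613 of 6589 were found once in RefSeq. Alternatives covered read and FPKM minimums, depth, loci, left-out libraries and the pseudocount. Python 3.11.15, numpy 2.4.6, scipy 1.17.1 and matplotlib 3.10.9 were used.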

Additional observations from a re-analysis of the deposited data

How the results depend on the processing

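The numbers per muscle stayed within 1.5 times under a minimum of 10 reads, 1 FPKM or 10 FPKM, with listed reads thinned to equal depth and by locus. Leaving out 1 library gave 8382 to 9461 for longissimus thoracis, 7874 to 8938 for scapula muscle, 2704 to 3443 for gluteus and 3637 to 5430 for intercostal muscle. Values below are in that order of muscles. The share of listed transcripts that are in 1 muscle was 62.2%, 50.7%, 32.9% and 39.0% with listing at 10 or more reads, and 58.6%, 47.2%, 30.5% and 34.6% at 10 FPKM. With listed reads thinned to equal depth it was 46.5% for longissimus thoracis, 34.0% for scapula muscle and 22.3% for intercostal muscle. Leaving out 1 library gave 48.9 to 55.2%, 40.02 to 45.4%, 23.6 to 30.1% and 25.8 to 38.6%. With 10 or more reads the median levels were 28.9, 34.0, 46.6 and 41.4 FPKM, and the median lengths in scapula muscle, gluteus and intercostal muscle 269, 256 and 260.0 nucleotides. The share of reads was then 5.57%, 4.49%, 1.81% and 2.47%, and the share of loci with a neighbour of the same muscle 42.0%, 31.5%, 8.64% and 11.99%. Among loci with an intergenic transcript that last share was 51.6%, 44.7%, 17.1% and 22.2%. In lowest terms, an alternative added after seeing the data, the median lengths were 211, 230.0, 224 and 225 nucleotides and the shares with 1 read 8.40%, 13.4%, 11.9% and 14.3%. At 80 FPKM or more, in place of 50 reads, the shares listed alone were 21.1%, 15.2%, 19.6% and 14.3%. The cause of these shifts was not tested. The 2-fold counts did not move under the 3 alternatives run. No paired analysis was possible because each muscle has 1 library. Depth limits what is listed, and 1 read on the shortest length is worth 2.32 to 4.47 FPKM.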

Other observations

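Further large stretches held transcripts of several muscles. They were picked after their values were seen, and the differences were not tested. Between RPS12 and EYA4, a transcriptional coactivator, longissimus thoracis had 34 transcripts of its own, gluteus 19, scapula muscle 18 and intercostal muscle 2. Mean levels there were 29.0 FPKM over 30.8 kb in longissimus thoracis, 29.2 over 28.9 kb in gluteus, 25.1 over 33.8 kb in scapula muscle and 18.97 over 15.9 kb in intercostal muscle. Between TOP2B and THRB, a receptor of thyroid hormone, scapula muscle had 23, intercostal muscle 19, longissimus thoracis 13 and gluteus 2. The mean level over the listed transcripts was highest in intercostal muscle, 27.1 FPKM over 27.4 kb, and lowest in gluteus, 16.9 over 11.8 kb. Summed over them, the level was 761 RPM in scapula muscle, 743 in intercostal muscle, 319 in longissimus thoracis and 199 in gluteus.

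Between ZBTB20, a transcriptional repressor, and TMEM39A, scapula muscle had 52 of 107 transcripts listed in 1 muscle, longissimus thoracis 35, intercostal muscle 18 and gluteus 2. Between ERBB4 and IKZF2 longissimus thoracis had 43 of 106, scapula muscle 41, intercostal muscle 15 and gluteus 7. This split was not far from that of all transcripts listed in 1 muscle, 40.1%, 33.6%, 15.5% and 10.8% in the same order. On the far side of MITF, towards ARL6IP5, intercostal muscle had 16 of 46, scapula muscle 17, longissimus thoracis 10 and gluteus 3, whereas the neighbouring stretch from GXYLT2 to MITF held longissimus thoracis transcripts alone.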
